A study of Mus musculus with 2 samples.

Results

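The genes described here were 39 molecular chaperones, co-chaperones and heat shock genes, taken by name from the 22686 genes listed in either of the 2 libraries. They were grouped by role into 11 genes of the type induced through the heat shock factor HSF1, 13 genes of the constitutive cytosolic Hsp70 and Hsp90 machinery, 4 endoplasmic reticulum chaperones, 3 mitochondrial chaperones, 7 subunits of the cytosolic chaperonin CCT, and Hsf1 itself. T cells were sorted by CD3 and CD5 from the spleens of mice aged 8 to 9 weeks and captured on the BD Rhapsody platform, which tags each cell and each captured transcript with a unique molecular identifier (UMI). The LatY136F group carries the Y136F mutation of the adaptor LAT, and the LatY136FCD45-KO group carries the same mutation and in addition lacks CD45, the receptor phosphatase encoded by Ptprc. Each genotype had 1 library. How many mice were pooled per library is unknown here, and the sample tags were not used. No difference below therefore has a replicate check, no p-value is given, and the 95% intervals in parentheses cover counting error only. The list of genes was chosen with earlier results of these data known, so counts and medians within it are descriptive and no independent support.

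Cells under stress transcribe heat shock genes when HSF1, held inactive by chaperones in resting cells, is released, forms trimers and binds heat shock elements in promoters. The Hsp70 proteins fold clients with the help of J-domain proteins of the Dnaj family and nucleotide exchange factors, and Hsp90 acts later on kinases and receptors, including signalling proteins of lymphocytes. The endoplasmic reticulum has its own Hsp70 and Hsp90, which are raised by the unfolded protein response, the mitochondrial matrix has the Hspd1 and Hspe1 chaperonin, and the CCT ring folds actin and tubulin.

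Of the 10 inducible genes that could be compared, 5 were at least 1.5-fold higher in the LatY136FCD45-KO library than in the LatY136F library, beside 8.33% of all genes compared, while the medians of the endoplasmic reticulum and CCT genes lay near 0. Hspa1a and Hspa1b, the 2 near-identical copies of the stress-inducible Hsp70, showed the largest log2 ratios of the 38 members that could be compared, 3.81 and 3.29 (LatY136FCD45-KO over LatY136F, as for all ratios below unless said otherwise). Hsph1, an Hsp110 exchange factor, and the J-domain proteins Dnaja1 and Dnajb1 were 1.79-fold, 1.61-fold and 1.58-fold higher. The median log2 ratio was 0.61 for the inducible genes, -0.04 for the endoplasmic reticulum chaperones and -0.002 for CCT, against 0.03 for all 12750 genes compared. With Hspa1a and Hspa1b summed as 1 gene the inducible median was 0.57. The transcript of Hsf1 itself differed by 0.07 on the log2 scale (-0.06 to 0.20).

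The libraries held 13775 and 12845 cells with 35300371 and 29268453 UMIs, LatY136F first. Filters and a T-cell gate on receptor transcripts left 13716 and 12716 T cells, with medians of 2154 and 1987 UMIs per cell and of 8.59% and 9.42% mitochondrial counts. The libraries shared 223 cell barcodes. T-cell markers were present, with 0 of 8 at 0 in either library and a summed level of 8278 and 6658 CPM, which is counts scaled to a common library total. In the gated cells the B-cell markers summed to 4.30 and 5.01 CPM (1 and 0 of 8 at 0), the myeloid markers to 177 and 152 CPM (3 and 0 of 9 at 0), the plasma cell markers to 61.9 and 152 CPM (0 of 3 at 0 in both), the erythroid markers to 1.45 and 0.315 CPM (0 of 2 at 0 in both) and the NK-cell markers to 3.16 and 4.97 CPM (1 and 0 of 3 at 0). The part of these cells or their free RNA in the ratios below was not tested. Ptprc stood at 1760 CPM in the LatY136F library and at 1180 CPM in the LatY136FCD45-KO library. No source used here says which exons were deleted, so the transcript does not check the label.

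The upstream sequences of the genes with the largest ratios are shown first. The stretches below are the 250 bases before the RefSeq start of each gene (GRCm38.p6, minus strand, chr17:34972157-34972406 for Hspa1a and chr17:34959239-34959488 for Hspa1b, no GENCODE M21 transcript in either), written 5′ to 3′ with a heat shock element of 2 units in capitals.
Hspa1a: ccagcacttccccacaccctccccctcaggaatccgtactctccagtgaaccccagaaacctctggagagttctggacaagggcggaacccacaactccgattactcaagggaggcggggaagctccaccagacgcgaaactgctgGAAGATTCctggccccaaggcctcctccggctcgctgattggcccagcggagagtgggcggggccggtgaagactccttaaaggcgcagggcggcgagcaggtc
Hspa1b: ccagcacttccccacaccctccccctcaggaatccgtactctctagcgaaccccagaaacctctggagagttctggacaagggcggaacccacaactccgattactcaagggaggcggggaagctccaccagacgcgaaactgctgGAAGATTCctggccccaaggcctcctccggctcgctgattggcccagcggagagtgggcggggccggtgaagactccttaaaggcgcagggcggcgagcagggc
The sequences differed at 3 of 250 bases (98.8% identical), and the capitals lie at bases -104 to -97 from the start in both. A match of 2 units is common, at 15.1% of all promoter windows searched, and neither gene had the stricter element of 3 units described below. Because the 2 genes are so alike, UMIs may be split between them by the authors' counting, and their summed count is also used below.

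A stricter element of 3 alternating units, GAA and TTC and GAA with any 2 bases between neighbours, was searched on both strands in windows from 250 bases before to 50 bases after each RefSeq start. It was found in 198 of 32851 windows (0.603%) and in 5 of the 33 members that had a window, Hspd1, Hspe1, Hsph1, Chordc1 and Dnajb6. By group these were 2 of 10 inducible, 1 of 11 cytosolic, 0 of 4 endoplasmic reticulum, 2 of 2 mitochondrial and 0 of 6 CCT genes. Hspa8, Hsp90ab1, Hsf1, Hspa9, Cct4 and Hsp90aa1 had no window. The sites are shown in stretches of 30 bases with the element in capitals, overlapping matches joined.
Hspe1: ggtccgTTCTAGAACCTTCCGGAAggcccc
Hsph1: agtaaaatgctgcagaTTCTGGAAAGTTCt
Chordc1: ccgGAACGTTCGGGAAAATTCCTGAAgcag
Dnajb6: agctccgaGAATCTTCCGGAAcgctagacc
These lie at chr1:55088053-55088082 on the plus strand, in the window that Hspd1 shares with Hspe1 and in a 5′ exon of Hspd1, at chr5:149636287-149636316 on the minus strand in a transcribed exon of Hsph1, at chr9:18292260-18292289 on the plus strand in an exon of Chordc1, and at chr5:29735844-29735873 on the plus strand in an exon of Dnajb6 (GRCm38, GENCODE M21). The shorter element of 2 units (GAA and TTC in either order, 2 bases apart, which every match of 3 units also holds, a search added after the data were seen) matched in 4946 of all windows (15.1%) and in 14 of 33 members. Those 14 comprised 8 of 10 inducible, 2 of 11 cytosolic, 0 of 4 endoplasmic reticulum, 2 of 2 mitochondrial and 2 of 6 CCT genes. A match describes letters in a window and no binding.

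The endoplasmic reticulum stress element, CCAAT followed after 9 bases of any kind by CCACG, was searched in the same windows on both strands. It was present in 39 windows (0.119%), and among the members in 3 of the 4 endoplasmic reticulum genes, Hspa5, Hsp90b1 and Dnajc3. The sites are shown in the same way, and Hsp90b1 has a pair of them.
Hspa5: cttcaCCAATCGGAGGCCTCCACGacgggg
Hsp90b1: caagcCCAATCGCAAGGAGCCACGcttcgg
Hsp90b1: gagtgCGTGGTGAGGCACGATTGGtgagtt
Dnajc3: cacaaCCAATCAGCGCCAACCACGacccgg
They lie at chr2:34772020-34772049 on the plus strand in an exon of Hspa5, at chr10:86705632-86705661 and chr10:86705527-86705556 on the minus strand outside any GENCODE transcript, and at chr14:118937822-118937851 on the plus strand outside any transcript.

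Hspa1b (chromosome 17, 34956436 to 34959238, minus strand, GRCm38) had 159 UMIs under LatY136F and 1260 under LatY136FCD45-KO, or 4.53 and 44.1 CPM. This is a log2 ratio of 3.29 (3.05 to 3.53). Hspa1a, its neighbour (34969190 to 34972156), had 17 and 194 UMIs, or 0.484 and 6.79 CPM, with a log2 ratio of 3.81 (3.09 to 4.62). Both copies were therefore high in the same library, and with their counts summed the log2 ratio was 3.35. In these bulk sums over T cells, more cells with the transcript and more transcript per cell cannot be told apart. At such low counts the shares of cells with a UMI, given further below, rise with either and do not separate them.

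The other inducible genes with J-domain or exchange functions moved less. Hsph1 (chromosome 5, 149614287 to 149636376) stood at 76.8 and 138 CPM in the LatY136F and LatY136FCD45-KO libraries, a log2 ratio of 0.84 (0.77 to 0.91). Dnaja1 (chromosome 4, 40722150 to 40737149), the main partner of Hsp70 for folding newly made proteins, stood at 400.0 and 644 CPM, a log2 ratio of 0.69 (0.65 to 0.72). Dnajb1 (chromosome 8, 83608193 to 83612653), the Hsp40 that also helps Hsp70 to hold HSF1 in check, stood at 89.8 and 142 CPM, a log2 ratio of 0.66 (0.59 to 0.72). These 3 and the Hspa1 pair were the members at or past 1.5-fold higher, 5 of 38. No member was 1.5-fold lower. Over all 12750 genes, 8.33% were 1.5-fold higher and 9.06% were 1.5-fold lower. Among the 7060 genes with at least 1000 UMIs the shares were 1.73% higher and 3.61% lower. Of the 5 members, Hspa1a had fewer than 1000 UMIs.

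Hsp90aa1 (chromosome 12, 110690605 to 110702728), the inducible cytosolic Hsp90, stood at 492 and 568 CPM, a log2 ratio of 0.21 (0.18 to 0.24). Its log2 ratio was 0.46 with the mix of cell states held equal between libraries and 0.40 with cells weighted equally. Within the 10 gates described below it ranged from -0.20 to 0.32. What moved the value of Hsp90aa1 was not tested. Chordc1, an Hsp90 co-chaperone, had a log2 ratio of 0.34 (0.28 to 0.39), and Bag3, an exchange factor that links Hsp70 to autophagy, of 0.29 (0.09 to 0.48). Dnajb4 had 44 and 53 UMIs and a log2 ratio of 0.57, with an interval from -0.04 to 1.18. Hspa4l, another Hsp110, had -0.10 (-0.21 to 0.01). Hspb1, a small heat shock protein, had 2 and 7 UMIs and was the only member under the minimum of 20. Thus 8 of the 10 inducible genes compared had an interval above 0 and 0 had one below 0. Of all 12750 genes compared, 3761 had an interval above 0 and 3262 had one below 0. Of the 5 members with the heat shock element of 3 units, Hsph1 was at 0.84, Chordc1 at 0.34, Hspd1 at 0.28, Hspe1 at 0.21 and Dnajb6 at -0.01, and all but Dnajb6 had an interval above 0. Among the 46 genes outside the list with that match the median was -0.01, with 2 past 1.5-fold higher and 5 lower. Over the 9605 genes outside the list with a window the median was 0.02, with 711 higher and 796 lower. The 1334 genes outside the list with the element of 2 units had a median of 0.02, with 115 higher and 97 lower.

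**Figure D1:**
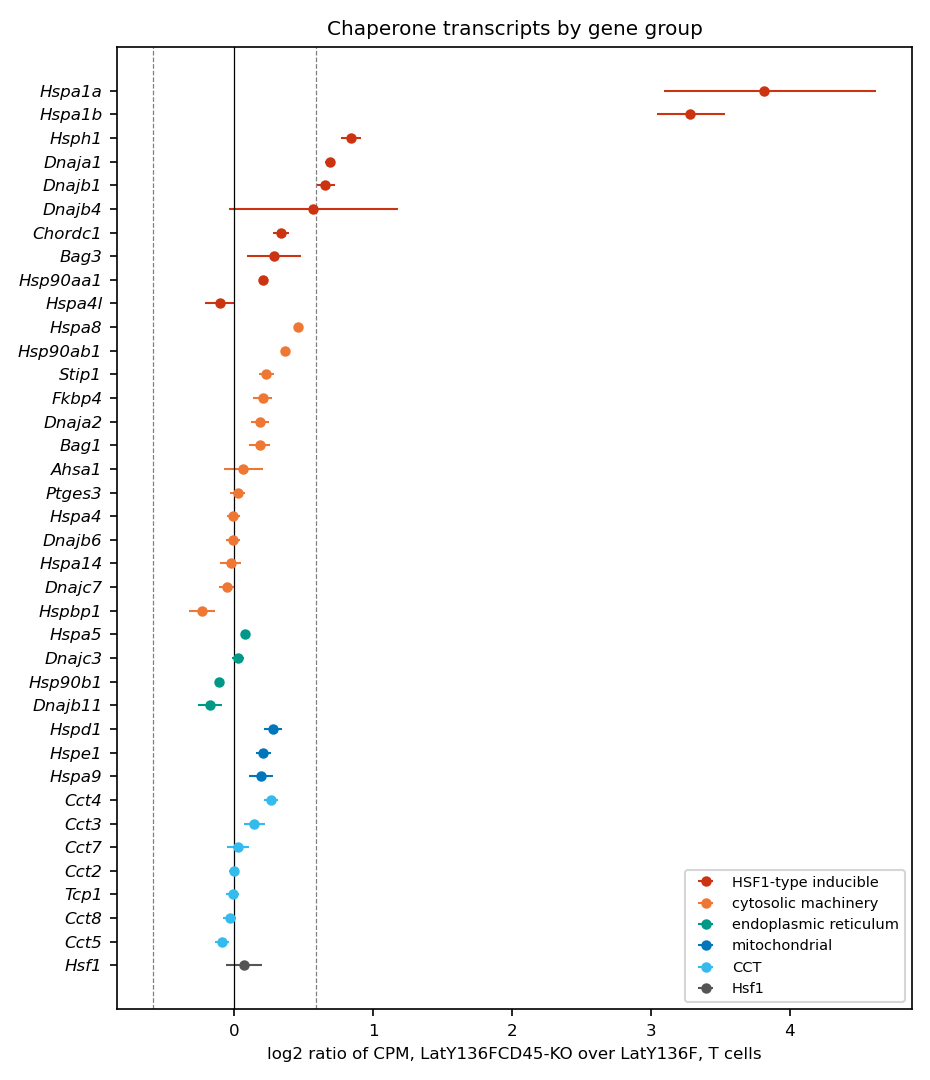
Log2 ratio of CPM (LatY136FCD45-KO over LatY136F, x axis) for the 38 members with at least 20 UMIs, by gene group, from counts summed over T cells. Bars are 95% intervals of counting error and dashed lines mark 1.5-fold. Hspa1a (3.81) and Hspa1b (3.29) lie far to the right, Hsph1, Dnaja1 and Dnajb1 just past the dashed line, and the other members inside it.

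In the constitutive cytosolic machinery 0 of 13 genes passed 1.5-fold in either direction, and the median log2 ratio was 0.06. Hspa8 (chromosome 9, 40800984 to 40810087), the constitutive Hsp70, nevertheless stood at 909 and 1247 CPM, a log2 ratio of 0.46 (0.43 to 0.48). Hsp90ab1 (chromosome 17, 45567775 to 45573271), the constitutive Hsp90, stood at 1492 and 1926 CPM, a log2 ratio of 0.37 (0.35 to 0.39). These were the highest ratios of the group. Stip1, which passes clients from Hsp70 to Hsp90, had 0.23, Fkbp4, an immunophilin bound to Hsp90, 0.20, the J-domain protein Dnaja2 0.19, and the exchange factor Bag1 0.18, all on the log2 scale with intervals above 0. Ahsa1, an activator of the Hsp90 ATPase, and the Hsp90 co-chaperone Ptges3 had 0.06 and 0.02. Hspa4, Dnajb6, Hspa14 and Dnajc7 lay between -0.06 and -0.01. Hspbp1, which antagonises Hsp70 by releasing its nucleotide, was the lowest member of all at -0.23 (-0.33 to -0.14).

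The endoplasmic reticulum chaperones had similar levels in the 2 libraries. Hspa5 (chromosome 2, 34771970 to 34777547), also called BiP, stood at 759.6 and 800.5 CPM, a log2 ratio of 0.08 (0.05 to 0.10). Hsp90b1 (chromosome 10, 86690209 to 86705509), the Hsp90 of this compartment, stood at 686 and 636 CPM, a log2 ratio of -0.11 (-0.14 to -0.08). Both genes carry the stress element shown above, and they moved in opposite directions by small amounts. Dnajc3 had 0.03 (-0.02 to 0.07), and Dnajb11, a J-domain partner of BiP, had -0.17 (-0.26 to -0.09). The group had 0 of 4 past 1.5-fold.

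The mitochondrial chaperonin and its Hsp70 were slightly higher in the LatY136FCD45-KO library. Hspe1 (chromosome 1, 55088132 to 55091307), the lid of the chaperonin, stood at 168 and 194 CPM, a log2 ratio of 0.21 (0.16 to 0.26). Hspd1 (55077835 to 55088243), its barrel, stood at 117 and 142 CPM, a log2 ratio of 0.28 (0.22 to 0.34). Hspa9, the Hsp70 of mitochondrial import, had 0.19 (0.11 to 0.28). All 3 intervals were above 0, as were 3761 of those of all 12750 genes, and 0 of 3 passed 1.5-fold.

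For CCT the subunits did not move as a block. Cct2 (chromosome 10, 117051001 to 117063814) stood at 382.6 and 382.1 CPM, a log2 ratio of -0.002 (-0.04 to 0.04), and Cct8 (chromosome 16, 87483326 to 87495873) at 232 and 227 CPM, a log2 ratio of -0.03 (-0.08 to 0.01). Cct4 was the highest at 0.26 (0.21 to 0.31) and Cct5 the lowest at -0.09 (-0.14 to -0.04). Cct3 had 0.14, Cct7 0.03 and Tcp1 -0.01, so 0 of 7 passed 1.5-fold. Hsf1 (chromosome 15, 76477422 to 76501913) stood at 30.04 and 31.49 CPM. Over all 38 members the median log2 ratio was 0.16, with 20 intervals above 0 and 4 below 0. For all 12750 genes, 3761 intervals lay above 0 and 3262 below 0.

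Other genes of the same pathways gave a background for each group. Of 14 further genes of the HSF1 network, 1 passed 1.5-fold higher and 0 lower, with a median log2 ratio of -0.03. The gene that passed was the J-domain gene Dnajb2 (5.64 and 10.7 CPM, 0.93). The largest ratios among its more abundant genes were 0.37 for Cacybp, a binder of the Siah1 ubiquitin ligase, -0.34 for the ubiquitin gene Ubb, -0.29 for the immunophilin Fkbp5, and -0.13 for Hsbp1, an HSF1-binding protein. Of 20 genes of endoplasmic reticulum folding and the unfolded protein response, 0 passed higher and 1 lower, with a median of -0.10 and 10 intervals below 0 against 4 above. For all 12750 genes, 3262 intervals lay below 0 and 3761 above. The largest ratios of these 20 genes were -0.66 for Sdf2l1, -0.49 for the disulphide isomerase Pdia6, -0.39 for Manf and -0.31 for Xbp1, the transcription factor of that response. Genes of mitochondrial folding and proteases had a median of 0.04, with 0 of 11 past 1.5-fold. Among them Afg3l2, a subunit of an inner-membrane protease, had -0.33, the mitochondrial Hsp90 Trap1 -0.22, the matrix protease subunit Clpp 0.16 and Hscb, a co-chaperone of iron-sulphur cluster assembly, 0.12. The prefoldin genes and Cct6b, which serve CCT, had a median of -0.07 with 0 of 8 past 1.5-fold, from 0.26 for Pfdn5 and 0.13 for Pfdn6 to -0.16 for Pdcl3 and -0.20 for Pfdn1.

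Immediate early genes, which are transcribed within minutes of stimulation or of handling cells, also stood higher in the LatY136FCD45-KO library. Of 17 such genes 5 passed 1.5-fold higher and 0 lower, with a median log2 ratio of 0.45. Intervals lay above 0 for 15 of them and below 0 for 2. For all 12750 genes, 1062 passed higher and 1155 lower, and 3761 intervals lay above 0 and 3262 below. Jun had a log2 ratio of 1.57 from 20.7 and 61.6 CPM, Fosb of 1.01 from 48.7 and 98.0 CPM, and Ier2 and Dusp1 both at a log2 ratio of 0.63. Atf3 also passed, with only 7 and 18 UMIs. It met the minimum of 20 through its LatY136FCD45-KO count, so its place among the 5 supports nothing. The gate for immediate early genes (UMIs of at least 3 of 10 of them) held 15.0% of LatY136F and 17.6% of LatY136FCD45-KO T cells. In the T cells outside it, a comparison that was not planned, the median of the inducible chaperones was 0.58. As most T cells lay outside the gate, this median could differ little from the 0.61 of all T cells. The part of cell handling in the ratios was not tested. Across bands of mitochondrial share (to 8%, 8 to 12% and 12 to 25%) the inducible median was 0.68, 0.55 and 0.42, and Hspa1b was at 3.10, 3.39 and 3.31. Across bands of depth (to 1500, to 3000 and over 3000 UMIs per cell) the inducible median was 0.53, 0.67 and 0.48, and Hspa1b was at 3.06, 3.05 and 3.64.

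Few cells carried the Hspa1 transcripts in either library. After each cell was thinned to 1000 UMIs, 63 of 13284 LatY136F T cells had a UMI of Hspa1a or Hspa1b, which is 0.474% (0.365 to 0.606, exact Clopper-Pearson). In the LatY136FCD45-KO library 505 of 12362 cells had one, which is 4.09% (3.74 to 4.45). Without thinning the shares were 1.07% and 6.88%. Hence most T cells of both libraries showed no UMI of the pair at this depth, which does not show that they lacked it.

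The carriers in the LatY136FCD45-KO library also held more copies. The LatY136F library had 125 cells with 1 UMI of the pair, 16 with 2 and 6 with 3 or more, and at most 4 in a cell. The LatY136FCD45-KO library had 588, 167 and 120 such cells, and at most 37 in a cell. Without that cell the log2 ratio of Hspa1b over T cells was 3.26. Cells outside the T-cell gate, which also express the pair under stress and so give no clean background, had a UMI in 1 of 31 cells (median 4186 UMIs) and in 4 of 118 cells (median 5285 UMIs), or 3.23% and 3.39%.

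**Figure D2:**
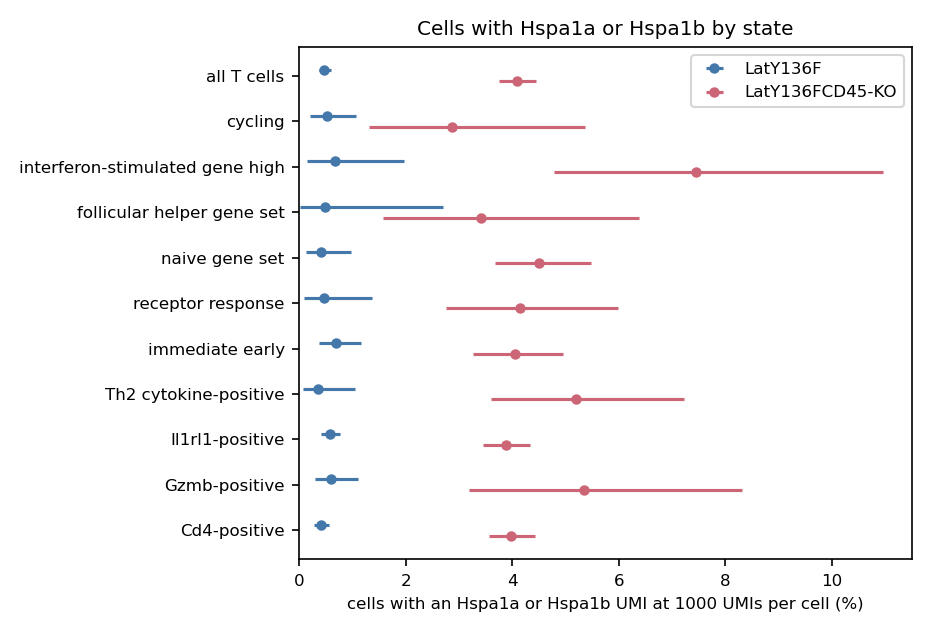
Share of cells with a UMI of Hspa1a or Hspa1b (x axis, percent) after thinning to 1000 UMIs per cell, for all T cells and for 10 overlapping gates on transcripts, by library. Points are shares and bars exact 95% binomial intervals. The LatY136F points lie between 0.358% and 0.688% and the LatY136FCD45-KO points between 2.87% and 7.44%.

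The ratios were also taken within cell states. States were gated on transcripts that are not members, gates may overlap, and 10 gates had at least 100 cells in both libraries. The interferon-stimulated gene high gate asked for UMIs of at least 4 of 16 genes, the follicular helper gate for 3 of 8 (among them Cxcr5 and Bcl6), the naive gate for 3 of 9 (among them Ccr7 and Lef1) and the receptor response gate for 3 of 10 (among them Nr4a1 and Egr2). The Th2 cytokine-positive gate asked for a UMI of Il4, Il5 or Il13, the Il1rl1-positive and Gzmb-positive gates for a UMI of that gene, and the Cd4-positive gate for a Cd4 UMI without Cd8a or Cd8b1. The inducible median log2 ratio ranged from 0.31 in cycling cells, where the mitochondrial median was 0.27 and 3 of 9 inducible genes passed 1.5-fold higher beside 7.84% of all genes, to 0.69 in cells of the receptor response gate. The cytosolic median ranged from -0.07 to 0.17, the endoplasmic reticulum median from -0.12 to 0.19, the mitochondrial median from -0.14 to 0.44 and the CCT median from -0.24 to 0.26, beside -0.01 to 0.04 for all genes. The inducible median was the highest of the 5 groups in every one of these gates except the Gzmb-positive gate, where the mitochondrial median was 0.44 and the inducible median 0.42.

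Single members were followed across the same gates. The log2 ratio of Hspa1b ranged from 2.53 in the follicular helper gate (4 and 25 UMIs) to 5.08 in the interferon-stimulated gene high gate. In several gates Hspa1b, with as few as 4 LatY136F UMIs, and Hspa1a met the minimum through their LatY136FCD45-KO counts, so the number of gates in which they were higher supports nothing. Hsph1 was higher in 10 of 10 gates (0.59 to 1.11), Dnajb1 in 7 of 10 (0.17 in cycling cells to 0.84) and Dnaja1 in 6 of 10 (0.44 to 0.68). Bag3 was higher in 2 of 10 gates and Dnajb4 in 2 of 3. In the cycling gate Dnajb4 had 15 and 10 UMIs, with an interval from -0.03 to 2.54. It met the minimum there through its LatY136FCD45-KO count, so its number of gates supports nothing either. Over all genes, the share 1.5-fold higher was 7.84% in the cycling gate, 10.4% in the interferon-stimulated gene high gate, 10.6% in the follicular helper gate, 8.1% in the naive gate, 8.46% in the receptor response gate, 7.53% in the immediate early gate, 9.9% in the Th2 cytokine-positive gate, 7.24% in the Il1rl1-positive gate, 7.98% in the Gzmb-positive gate and 7.67% in the Cd4-positive gate. Hspa8 ranged from 0.005 in the follicular helper gate to 0.56 in the Gzmb-positive gate and passed in 0 of 10. Hspa9 was the only member 1.5-fold lower in any of these gates, at -0.63 with 93 and 65 UMIs in the follicular helper gate, where 8.86% of all genes were lower. In the other gates, named in the same order, 7.15%, 10.5%, 9.14%, 7.96%, 7.21%, 8.37%, 9.09%, 10.2% and 9.04% of all genes were lower.

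**Figure D3:**
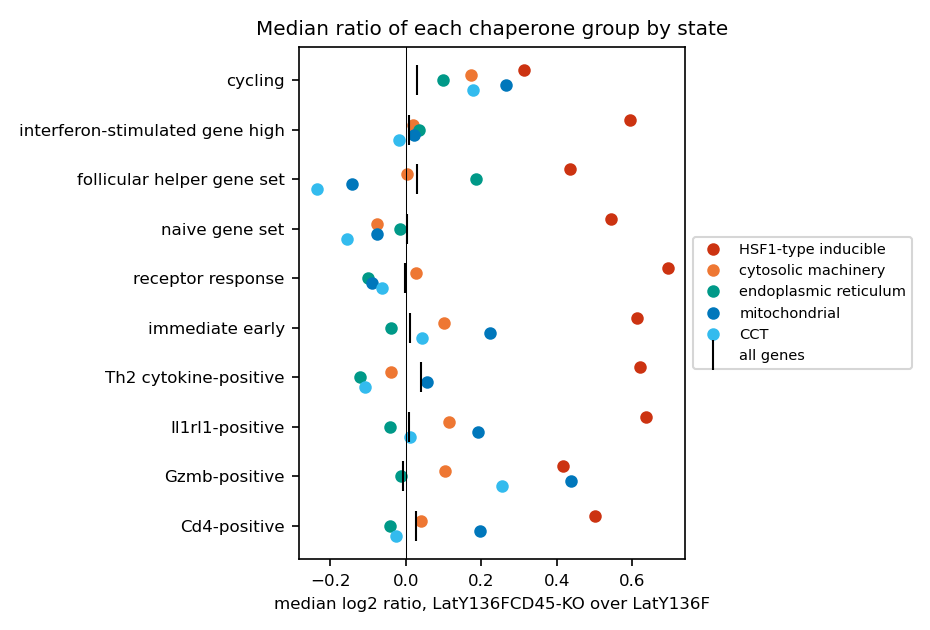
Median log2 ratio (LatY136FCD45-KO over LatY136F, x axis) of each chaperone group within 10 overlapping gates on transcripts, with the median of all genes as a vertical mark. The inducible genes lie between 0.31 and 0.69, and the other groups lie nearer to 0 in every gate but the Gzmb-positive one, where the mitochondrial median is 0.44.

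In the gate for cells with many interferon-stimulated transcripts (443 and 312 cells) Hspa1b stood at 2.94 CPM in the LatY136F library and at 99.6 CPM in the LatY136FCD45-KO library, from 5 and 98 UMIs, a log2 ratio of 5.08 (3.81 to 6.74). The cell with 37 UMIs of the pair lay in this gate, and without it the ratio was 4.77 from 79 UMIs. The thinned share of cells with the pair was 0.680% (0.141 to 1.98) and 7.44% (4.78 to 10.96). The intervals of the ratio and of the share overlapped those of several other gates, so an order of the gates is not shown. The Foxp3-positive gate had 99 and 29 cells and the Cd8-positive gate 23 and 24, too few for ratios.

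Cycling cells, gated on UMIs of at least 3 of 30 cell-cycle genes, carried more of a different set of chaperones in both libraries. They made up 1358 cells (9.90%) of the LatY136F and 315 cells (2.48%) of the LatY136FCD45-KO T cells, and had medians of 4469 and 5323 UMIs. Compared with the other T cells of the same library, 9 of 36 members were at least 1.5-fold higher in the LatY136F library and 11 of 36 in the LatY136FCD45-KO library, beside 12.7% and 13.4% of all genes. Lower by that much were 0 and 3 members, beside 15.1% and 19.6% of all genes.

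At full depth, the 7 members that passed in both libraries came from each of the 5 groups. Hsp90aa1 stood at 928 CPM in cycling and 376 CPM in other cells of the LatY136F library, and at 1153 and 524 CPM in the LatY136FCD45-KO library, log2 ratios of 1.30 (1.26 to 1.35) and 1.14 (1.07 to 1.20). Hspd1 stood at 199 and 95.3 CPM and at 296 and 130.3 CPM, with 1.06 (0.97 to 1.15) and 1.18 (1.05 to 1.31). The inducible Hsp90 and the mitochondrial chaperonin barrel thus had the widest gaps in both libraries at full depth. With each cell thinned to 1000 UMIs the mitochondrial medians fell to 0.23 and 0.21, and thinned values of single members are not given here. Whether these gaps hold at equal depth is therefore not shown. Stip1 had 0.83 and 0.81, Tcp1 0.75 and 0.83, Hsp90b1 0.72 and 0.84, Hspe1 0.70 and 0.63, and Cct5 0.59 and 0.76.

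The other inducible genes were divided in cycling cells. Hspa1b stood at 3.54 CPM in cycling and 4.79 CPM in other cells of the LatY136F library, and at 23.4 and 45.7 CPM in the LatY136FCD45-KO library, log2 ratios of -0.44 (-1.10 to 0.18) and -0.96 (-1.42 to -0.54). Dnajb1 had -0.17 and -0.66, and Dnaja1 -0.14 and -0.32. The Hsp110 genes lay on the other side of 0, with 0.48 and 0.31 for Hsph1 and 0.39 and 0.63 for Hspa4l, all with intervals above 0. The inducible median was -0.004 and -0.20, beside 0.39 and 0.53 for the endoplasmic reticulum, 0.70 and 0.63 for the mitochondrial and 0.59 and 0.57 for the CCT genes, and -0.10 for all genes in both. These values changed with depth, and with each cell thinned to 1000 UMIs the mitochondrial medians were 0.23 and 0.21, the LatY136F CCT median was 0.35 and the LatY136FCD45-KO endoplasmic reticulum median was 0.31.

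**Figure D4:**
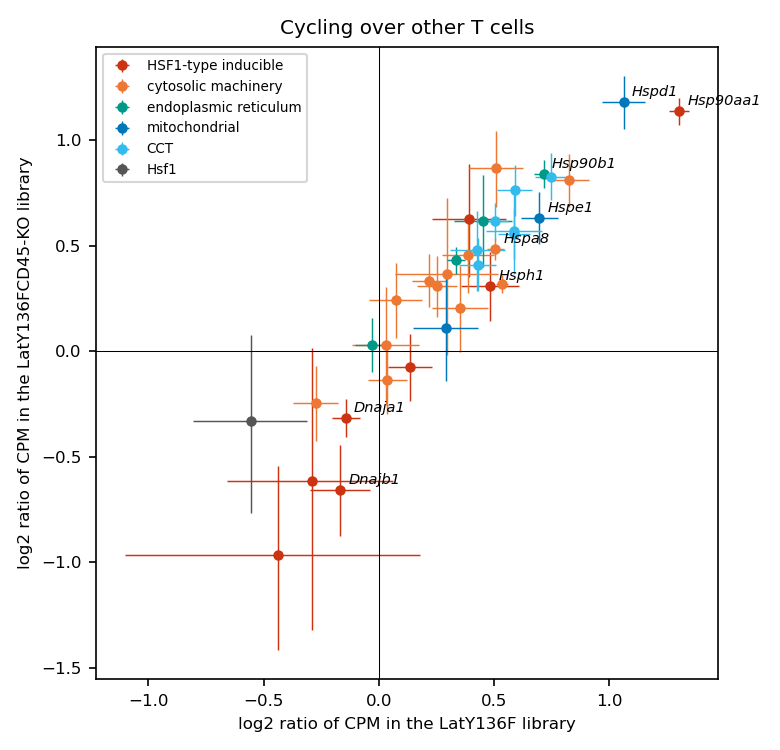
Log2 ratio of CPM, cycling over other T cells, in the LatY136F library (x axis) and in the LatY136FCD45-KO library (y axis), for members that passed the count minimum in both. Bars are 95% intervals of counting error. Hsp90aa1 (1.30 and 1.14) and Hspd1 (1.06 and 1.18) lie at the upper right, and Dnajb1 and Dnaja1 lie below 0 in both libraries.

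No member passed 1.5-fold higher in both libraries in the receptor response, immediate early or naive gene set gates. In the receptor response gate Hspd1 was at 0.94 and 0.52, Hspa9 at 0.76 and 0.27 and Hsp90aa1 at 0.73 and 0.51 over other T cells. The inducible medians there were 0.21 and 0.29, and 3 of 35 and 0 of 36 members were higher, beside 3.61% and 3.96% of all genes. In the immediate early gate 0 of 36 and 0 of 37 were higher, beside 0.9% and 2.29% of all genes, and the inducible medians were 0.07 and 0.01. In the naive gene set gate, 0 of 35 and 0 of 37 members were higher, beside 3.13% and 1.8% of all genes.

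At full depth, cells with the Hspa1 pair also carried more of many other chaperones, within each library. The LatY136F library had 147 such cells and the LatY136FCD45-KO library 875, with medians of 2259 and 2129 UMIs against 2153 and 1975 in cells without. Of the 32 and 35 other members that passed the minimum, 6 and 2 were at least 1.5-fold higher and 0 lower, beside 3.51% and 1.41% of all genes higher and 4.47% and 1.79% lower. Hsp90aa1 stood at 908 CPM with and 486 CPM without the pair in the LatY136F library, and at 833 and 545 CPM in the LatY136FCD45-KO library, log2 ratios of 0.90 (0.76 to 1.04) and 0.61 (0.54 to 0.68). With thinned cells these were 0.25 and 0.53. Of the 6 LatY136F members only Cct7 stayed past 1.5-fold after thinning, at 0.62, while Hspd1 was at 0.51, Hspe1 at 0.56, Cct3 at 0.11 and Hspa9 at 0.084, and Hspa8 came to pass at 0.64. In the LatY136FCD45-KO library Hsph1 stayed past it at 0.73. Without thinning, Hsph1 had 0.46 (0.03 to 0.86) and 0.67 (0.53 to 0.81), and Hspa8 had 0.56 (0.44 to 0.67) and 0.35 (0.30 to 0.40). Some LatY136F members fell from above 0 to below 0 after thinning, among them Hspa4l (-0.42), Cct4 (-0.34), Cct8 (-0.43) and Fkbp4 (-0.69). In the thinned LatY136FCD45-KO cells Hspa4l was at -0.22, and Cct4, Cct8 and Fkbp4 were at 0.25, 0.32 and 0.16.

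The inducible medians over the remaining genes of the class were 0.39 and 0.35, beside -0.03 and -0.01 for all genes. The mitochondrial medians were 0.77 and 0.33, the CCT medians 0.40 and 0.24, the endoplasmic reticulum medians 0.32 and 0.18, and the cytosolic medians 0.21 and 0.15. Without thinning, immediate early genes had medians of -0.15 and -0.01, at or below the median of all genes. Their values also changed with depth, and some turned from below to above 0. In thinned LatY136F cells Fos was at 0.36, Egr1 at 0.23 and Socs3 at 0.39, while Jund was at -0.20 and Dusp1 at -0.39. In thinned LatY136FCD45-KO cells Nfkbia was at 0.25 and Ier3 at 0.22, while Ier2 was at -0.15 and Rhob at -0.11. Cycling cells were 29 of the 147 and 34 of the 875 cells with the pair, and with cells thinned the LatY136F CCT median was -0.03 and the LatY136F endoplasmic reticulum median 0.13. Mitochondrial counts were 8.35% and 9.46% in cells with the pair and 8.59% and 9.41% in cells without. In T cells without a UMI of the pair, the inducible median of the LatY136FCD45-KO over the LatY136F library, leaving out the pair, was 0.46, and Hsph1 was at 0.78.

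**Figure D5:**
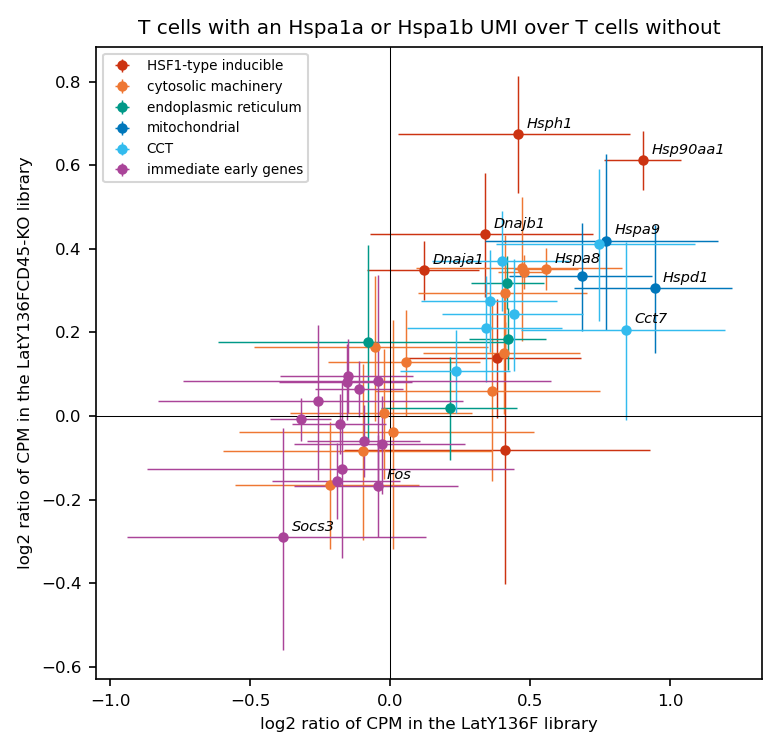
Log2 ratio of CPM, T cells with over T cells without a UMI of Hspa1a or Hspa1b, in the LatY136F library (x axis) and the LatY136FCD45-KO library (y axis), for members and immediate early genes that passed the count minimum in both. Bars are 95% intervals of counting error. Hsp90aa1 lies at 0.90 and 0.61, Hsph1 at 0.46 and 0.67, and the immediate early genes cluster around 0.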

How the data were processed

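Per the file headers, the authors made the deposited counts with pipeline version 1.9.1 of BD Rhapsody on GRCm38 with GENCODE M19 annotation. The design text names pipeline version 2.0 and the submitters' processing notes name GRCm39, and the headers were followed. The deposited values are UMI counts per cell and gene after error correction, with no normalization. Here, a cell was kept from 200 detected genes up and with no more than 25% mitochondrial counts (28 and 11 removed), and T cells had at least 1 receptor transcript UMI and fewer than 3 non-T marker UMIs. Doublets were not called. Counts were summed per library and given as CPM. Ratios have exact conditional binomial 95% intervals, with a floor of 3 counts for 0, shares have Clopper-Pearson intervals, and both cover counting error only. Genes needed 20 UMIs over both libraries. Comparisons within a library needed an expected count of 20 in the smaller set of cells, a choice made after the data were seen. With 1 library per genotype no test was run, and called means at least 1.5-fold. The computation was tested on simulated data. Gene positions come from GENCODE M21 and sequences from RefSeq (GRCm38.p6). The members and lists were chosen with earlier results of these data known. Values are given in full for members past 1.5-fold, the 2 most abundant of each group and Hsf1. Of each further list, the 4 genes with the largest ratio and at least 20 CPM are named, and Dnajb2 and Atf3 were added after their values were seen. Within a state, members past 1.5-fold in both libraries are named, and other members named there were chosen after their values were seen. Analyses used Python 3.11.15, numpy 2.4.6, scipy 1.17.1 and pandas 2.3.3. Alternatives changed the cell filters, thinning, weighting, mix of states, scaling, count minimum and grouping.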

Additional observations from a re-analysis of the deposited data

How the results depend on the processing

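The 5 members past 1.5-fold became 4 to 6 under the alternatives, with 0 lower in each, and the inducible median stayed between 0.40 (with Hspa8, Stip1, Ahsa1 and Fkbp4 added) and 0.66. Other group medians moved as follows. With the mix of states held equal the endoplasmic reticulum median was 0.020, the mitochondrial 0.30 and the CCT 0.11, with cells weighted equally the last 2 were 0.27 and 0.067, over all kept cells the endoplasmic reticulum median was 0.0094, and with CPM computed without mitochondrial and ribosomal protein genes it was -0.0021 and the CCT median 0.038. The share of cells with an Hspa1a or Hspa1b UMI depended on depth, with 0.255% and 2.39% at 500 UMIs per cell and 1.07% and 6.88% without thinning. Thinning to 1000 UMIs also moved values within libraries. In cycling LatY136F cells the inducible median became 0.13, the mitochondrial 0.23 and the CCT 0.35, and in cycling LatY136FCD45-KO cells the cytosolic became 0.11, the endoplasmic reticulum 0.31 and the mitochondrial 0.21. In naive gene set LatY136F cells the endoplasmic reticulum median became -0.090, the mitochondrial 0.29 and the CCT 0.14, and in LatY136F cells with the Hspa1 pair the CCT median became -0.034. The heat shock element of 2 units matched 14 members in place of 5. The cause of these shifts was not tested. No paired analysis was possible because each genotype had 1 library. Differences between mice, captures and cell handling cannot be told apart from genotype.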
